A study of Homo sapiens with 2 samples.

Results

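The MYC network is a family of basic helix-loop-helix leucine zipper transcription factors that bind E-box DNA as dimers with MAX. MYC, MYCN and MYCL form the activating arm, which drives ribosome production, metabolism and cell growth. MXD1, MXD3, MXD4, MXI1, MNT and MGA form the opposing arm, competing for MAX and bringing repressor complexes to the same DNA. MYBL2 is a cell cycle transcription factor of the MYB family, and the study asked which genes it occupies in Ewing sarcoma, a bone-associated cancer driven by the EWSR1-FLI1 fusion. The 10 genes of the network were taken as a list of names, chosen with earlier results of these data known. MYBL2 peaks at their promoters and in the surroundings of MYC were read from the deposited ChIP-seq list.

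The data were 1 MYBL2 ChIP library and 1 input library (sheared chromatin without antibody) of A673, an established Ewing sarcoma cell line, labelled as wild type, with no treatment named. The labels name an antibody against MYBL2 and the methods describe it as one for the phosphorylated, active protein. There was 1 library in each group, so no value has a replicate error and no difference between loci was tested. The list held 66954 peaks (median width 319 bp, median fold enrichment 3.79), positions are hg19 counted from 1, and the list holds no expression values with which the cell type or the activity of a gene could be checked. Fold enrichment is the ratio of ChIP fragments at the summit, the highest point of the peak, to the local background that the peak caller derived from the input, after 1 is added to each. It is therefore lower than the plain ratio of the counts printed beside it. Intervals are 95% Poisson intervals of the fragment count at the summit and cover counting error only.

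All 10 genes had at least 1 peak within 1000 bp of a transcription start site (TSS), beside 59.4% of the 20098 protein-coding genes. They held 28 such promoter peaks, of which 13 had a fold enrichment of at least 5. At that strength 8 of the 10 genes had a promoter peak, MYCN and MYCL being the exceptions, beside 49.6% of protein-coding genes. The genes differ in their number of annotated TSSs, from 3 to 37, which sets how much DNA was searched. All 10 had a CpG-rich promoter (observed/expected CpG of 0.665 to 1.04 within 500 bp of the main TSS), and 79.1% of protein-coding genes with a CpG ratio of at least 0.6 had a promoter peak. Olfactory receptor genes, mostly silent outside the nose, gave a low background of 3 of 415 genes (0.723%, exact binomial interval 0.149 to 2.10%).

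The DNA under the strongest promoter peak of 4 of the genes is shown. The windows of MXD3, MXD1 and MXD4 were chosen because each holds a word that was searched for. That of MXI1 holds none of these and was chosen for a pair of words picked after its sequence was seen. The windows reach 50 bp either side of the summit, read 5′ to 3′ on the strand of the gene, with matches to the words named here in capitals. MXD3 is shown for matches to the CHR element TTTGAA, the E2F word TTTCCCGC and the CCAAT box. MXD1 is shown for the ETS core CCGGAAGT, MXD4 for the MYB word TAACGG, and MXI1 for a repeated pair of words described below.

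MXD3 (chr5:176739383-176739483, minus strand): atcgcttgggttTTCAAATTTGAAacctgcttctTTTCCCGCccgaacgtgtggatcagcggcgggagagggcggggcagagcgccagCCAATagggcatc
MXD1 (chr2:70141565-70141665, plus strand): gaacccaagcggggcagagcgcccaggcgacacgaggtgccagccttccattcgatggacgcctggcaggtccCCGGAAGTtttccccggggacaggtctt
MXD4 (chr4:2264259-2264359, minus strand): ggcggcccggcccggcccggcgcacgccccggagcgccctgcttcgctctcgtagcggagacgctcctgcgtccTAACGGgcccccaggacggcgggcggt
MXI1 (chr10:111985600-111985700, plus strand): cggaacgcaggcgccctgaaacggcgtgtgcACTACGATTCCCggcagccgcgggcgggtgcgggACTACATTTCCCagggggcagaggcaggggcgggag

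In all, 8 kinds of word were sought on both strands within 50 bp of the summits, and 5 of the 10 strongest promoter peaks held none of them. The share of all promoter peaks without any of the words was not counted, so this count does not set the 10 genes apart. Even the commonest word, the CCAAT box, was at only 10.4% of all promoter peaks. The E-box (CACGTG), the word that MYC-MAX and MXD-MAX dimers bind, was found at MAX alone among the 10 genes. It was present at 2.50% of the 22943 promoter peaks of the whole list. MXD3 carried the most words. Its CHR element occurred as a pair, back to back, that reads the same on both strands, with an E2F word centred 12.5 bp from the summit and a CCAAT box 40 bp from it. Across all promoter peaks the CHR element was at 5.90%, the CCAAT box at 10.4% and the E2F words (TTTCCCGC or TTTCGCGC or TTTGCCGC or TTTGGCGC) at 1.14% of summits. CHR and E2F words are known from the promoters of late and early cell cycle genes. Whether the matches at MXD3 act in this way was not tested.

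An E2F word also lay 33.5 bp from the MYC summit. The ETS core, the kind of sequence that FLI1 and its relatives recognise, was found at MXD1 alone, beside 1.77% of all promoter peaks. The MYB words (CAACGG or CAACTG or TAACGG or TAACTG) were at MAX and MXD4, 2 of 10 genes, beside 9.31% of promoter peaks. AP-1 words (TGANTCA) and runs of 3 GGAA repeats, the element that EWSR1-FLI1 binds, were at 0 of the 10 summits. Over all promoter peaks they were at 1.89% and 0.0262%, so 10 summits are too few to show a lack of either. At MXI1 the words ACTAC and TTCCC, spaced 2 bases apart, occurred in 2 copies, 120 and 86 bp upstream of the nearest TSS. This pair was chosen after the sequence had been seen. It was at 0.549% of all promoter peaks. MYCN, MYCL, MNT and MGA held none of the words, which says only that these letters are not in the windows searched.

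MAX, the common partner, and MYC had the strongest promoter peaks of the network. The MAX peak (ENSG00000125952, chromosome 14, 65569025 to 65569942) had a fold enrichment of 22.5 (interval 18.3 to 27.3) from 99 fragments (80.5 to 120.5) over a background of 3.45. It was the only promoter peak of the gene, and all 14 MAX TSSs lay within reach of it. Its summit was 60 bp upstream of the main TSS. Among protein-coding genes with a promoter peak, 95.6% had a weaker best peak than MAX. The MAX peak was 918 bp wide.

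**Figure D1:**
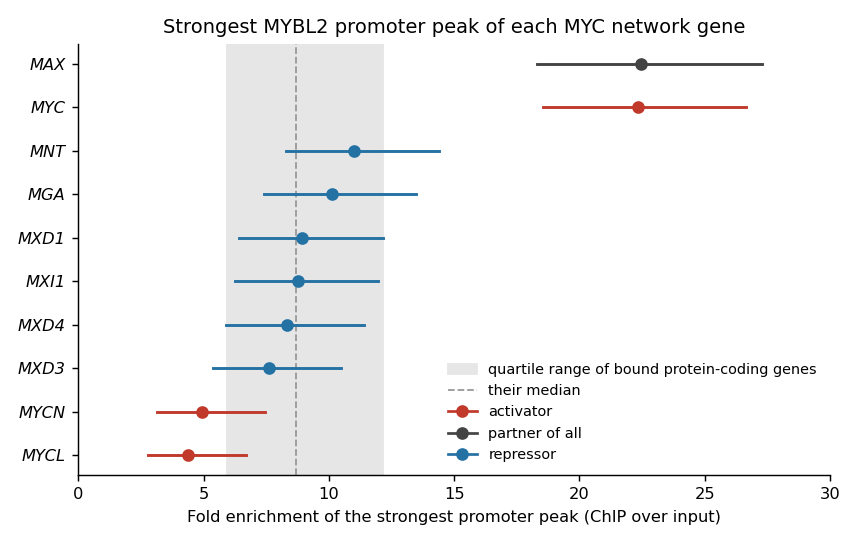
Fold enrichment of the strongest promoter peak of each gene (points) with its 95% Poisson interval (lines), coloured by role. The shaded band runs from the first to the third quartile of all bound protein-coding genes (5.94 to 12.1) and the dashed line is their median (8.67); MAX and MYC lie above the band, MYCN and MYCL below it.

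MYC, the archetypal growth-driving oncogene (ENSG00000136997, chromosome 8, 128747680 to 128755197), was covered from end to end by a single peak. The peak ran from 128746142 to 128756321, a width of 10180 bp, and began 1538 bp before the gene and ended 1124 bp after it. It ranked 31 by width in the whole list. Its fold enrichment, over a background of 4.42, was 22.3 (interval 18.5 to 26.7) from 120 fragments (99.5 to 143.5) at a summit 94 bp upstream of the main TSS, and 95.5% of bound protein-coding genes had a weaker best peak. The list gives 1 summit for each peak, so the shape of the signal within the 10180 bp is not known. The peak also covered a promoter of CASC11, an antisense long noncoding RNA (lncRNA), and cannot be assigned to one of the pair.

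MYCN and MYCL, the paralogs of MYC known from neuroblastoma and small cell lung cancer, had the weakest promoter peaks of the 10 genes. The stronger MYCN peak (ENSG00000134323, chromosome 2, 16080262 to 16080605) had a fold enrichment of 4.94 (interval 3.14 to 7.44) from 21 fragments, 267 bp upstream of the main TSS, and is shared with the antisense lncRNA MYCNOS. A second peak, of 3.35, lay 60 bp from an internal TSS, in an intron of the main transcript. MYCL (ENSG00000116990, chromosome 1, 40361100 to 40367928) had peaks of 4.39 (interval 2.77 to 6.67, 20 fragments) and 3.34 (15 fragments), 35 bp and 272 bp from the main TSS. The MYCL peaks were narrow, at 184 and 225 bp. Of bound protein-coding genes, 15.4% had a weaker best peak than MYCN and 10.6% a weaker one than MYCL. The intervals of both genes lay wholly below that of MYC. The CpG ratio was 0.776 at MYC, 0.697 at MYCN and 0.881 at MYCL.

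The 6 genes of the repressor arm had best fold enrichments from 7.61 to 11.0. All lay within the quartile range of bound protein-coding genes (5.94 to 12.1). MNT, the broadly expressed repressor of the family, was highest among them at 11.0 (interval 8.28 to 14.4, 52 fragments). Its peak (ENSG00000070444, chromosome 17, 2302293 to 2305161) was 2869 bp wide with the summit in the 5′ UTR, 21 bp from the main TSS. MNT had 4 further promoter peaks at internal TSSs, the strongest of 8.54 (37 fragments), 8442 bp into the gene.

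MGA, the large repressor that also carries a T-box DNA-binding domain, had a strong peak at each of 2 promoters. The upstream one (ENSG00000174197, chromosome 15, 41913079 to 41914300) had a fold enrichment of 10.1 (interval 7.41 to 13.5, 44 fragments) and lay 38.5 kb before the main TSS, at the promoter of an unnamed lncRNA as well. The main promoter (41952486 to 41953446) had a peak of 9.18 (interval 6.70 to 12.3, 43 fragments), so the values of the pair were close and their intervals overlapped.

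MXI1, which like the MXD proteins recruits SIN3 corepressors, had its strongest peak away from the main TSS, as MGA did. That peak lay 18.3 kb into the gene (ENSG00000119950, chromosome 10, 111985306 to 111985738), 101 bp upstream of the first of a dense group of TSSs. Its fold enrichment was 8.76 (interval 6.27 to 11.9, 38 fragments). A peak of 7.64 (33 fragments) lay 3233 bp into the gene. At the main TSS the peak reached 3.59 (interval 2.14 to 5.70, 16 fragments), an interval wholly below that of the strongest peak.

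The 3 MXD genes completed the arm. MXD1, which rises as many cell types leave the cell cycle and differentiate, had 1 promoter peak (ENSG00000059728, chromosome 2, 70141097 to 70141897) of 8.94 (interval 6.42 to 12.1, 39 fragments) with its summit 626 bp upstream of the main TSS. Its TSSs at -17421 bp and 23043 bp from the main one had no peak. MXD4 (ENSG00000123933, chromosome 4) had a pair of peaks, the stronger (2264162 to 2264464) of 8.31 (interval 5.89 to 11.4, 36 fragments) 473 bp upstream of the main TSS and the other (2263728 to 2264005) of 6.07 (26 fragments) 27 bp upstream. MXD3, the family member known from proliferating cells, had 4 promoter peaks, the strongest of 7.61 (interval 5.36 to 10.5, 35 fragments, ENSG00000213347, chromosome 5, 176739019 to 176739782). The summit of this peak lay 534 bp upstream of the main TSS and 325 bp downstream of the outermost TSS. The others ranged from 2.96 to 4.94.

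**Figure D2:**
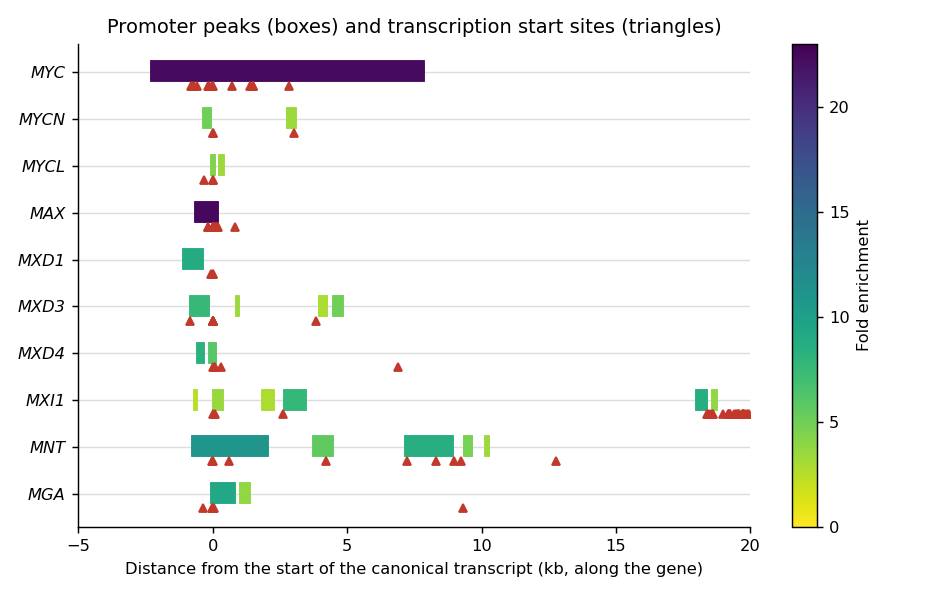
Promoter peaks (boxes, coloured by fold enrichment) and annotated TSSs (triangles) of the 10 genes by distance from the start of the canonical transcript in kb, along the direction of the gene. The MYC box spans 10180 bp, MXI1 has its strongest box near 18.3 kb, and 2 MGA peaks at 38.5 kb upstream and 35.7 kb downstream are outside the range drawn.

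In order of the best promoter peak the genes ran MAX, MYC, MNT, MGA, MXD1, MXI1, MXD4, MXD3, MYCN and MYCL. Of the 9 pairs of neighbours in that order, 8 had overlapping intervals. The exception was the step from MYC to MNT. The median over the 10 genes was 8.85, and 6 of them lay above the median of 8.67 over all 11941 bound protein-coding genes. Over bound protein-coding genes with a CpG ratio of at least 0.6, as all 10 had, the median was 8.99. Only MAX, MYC, MNT and MGA lay above that value. The background fragment counts at these peaks ran from 3.45 to 4.42, where 3.45 is the lowest background the peak caller allowed in this list and not a local count of input reads.

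Beyond its promoter, MYC was surrounded by many peaks, most of them weak and closely spaced. Within 500 kb of its TSSs there were 177 further peaks, and the density of 177.4 peaks per Mb, the promoter peak included, was higher than around 99.3% of protein-coding genes (median 33.0 per Mb). With peaks within 1000 bp counted as 1, there were 76 and the density was higher than around 98.6% of these genes. With only peaks of a −log10 q of at least 5 there were 78, and the density was higher than around 97.6%. With only peaks of a fold enrichment of at least 5 there were 15, and it was higher than around 73.6%. These ranks were added after the data had been seen. The peaks were strongly one-sided, with 10 upstream and 167 downstream. Of the 177, 166 had their summit (93.8%) inside PVT1, the lncRNA gene that starts 58.3 kb downstream of MYC and is often gained with it in tumours. The gene runs over 392.6 kb (chromosome 8, 128806772 to 129199347), and its peaks thinned out along it. Cut into 4 equal stretches from start to end, it held 73, 63, 25 and 5 summits.

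**Figure D3:**
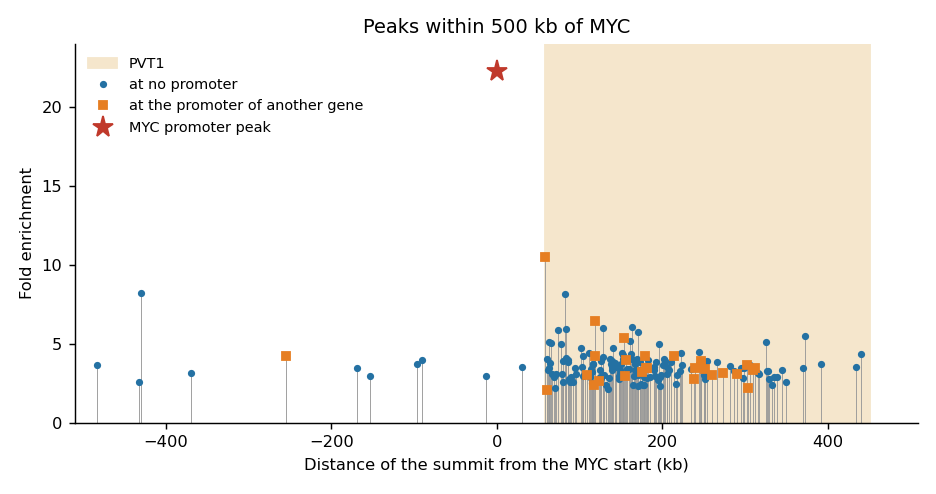
Fold enrichment of each peak within 500 kb of MYC by the distance of its summit from the MYC start in kb (negative values upstream), with the MYC promoter peak as a star. The shaded PVT1 gene holds 166 of the 177 distal peaks, mostly below a fold enrichment of 5.

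The median fold enrichment of the distal peaks was 3.45, the extremes were 2.05 and 10.5, and 15 of the 177 reached a fold enrichment of 5. The strongest marked the PVT1 promoter (128806309 to 128807883), with a fold enrichment of 10.5 (interval 7.94 to 13.6, 55 fragments). Next came an upstream peak 430.1 kb before MYC, inside the lncRNA genes CASC8 and PCAT1 (128318140 to 128318742, 8.22, interval 6.15 to 10.8, 50 fragments). The following 3 lay in PVT1, at 82.1 kb (8.18, 45 fragments), 119.0 kb (6.42, 39 fragments) and 163.2 kb (6.09, 35 fragments) downstream of MYC. PVT1 has 132 annotated TSSs and 26 promoter peaks by the rule used. In all, 28 of the 177 peaks were at the promoter of another gene and 149 were at no promoter.

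In strength the distal peaks at no promoter were close to such peaks elsewhere. Their median fold enrichment of 3.45 stood beside 3.54 over the 44011 peaks at no promoter, and 8.05% of them reached 5, beside 11.9%. Their number was high. PVT1 held 42.3 summits per 100 kb, rank 39 among 5077 protein-coding and lncRNA genes of at least 100 kb, whose median was 0.803. The background at these peaks, a measure of input reads, had a median of 5.18 in PVT1 and 5.51 at the 11 distal peaks outside it, both above the 3.98 over the 2623 peaks of chromosome 8 and the 4.50 over all peaks at no promoter. The part of this higher background in the number of peaks was not tested.

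Among the 149 peaks at no promoter, the E-box was at 3 summits (2.01%, beside 1.12% of all peaks at no promoter) and the CHR element at 20 (13.4%, beside 11.0%). MYB words were at 14 (9.40%, beside 11.0%) and AP-1 words at 6 (4.03%, beside 4.13%). The CCAAT box was at 22 (14.8%, beside 14.4%), E2F words at 1 (0.671%, beside 0.198%) and the ETS core at 0 (beside 0.152%). A run of GGAA repeats lay at 1 of them (0.671%, beside 0.132%), 161.4 kb downstream of MYC, where the fold enrichment was 5.16. With 1 peak each, the E2F and GGAA shares cannot be told apart from those of all peaks at no promoter.

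The other 9 genes had between 6 and 100 further peaks within 500 kb. MXD4 had 100 and MNT 81, in windows with 15 and 14 other protein-coding genes. The MYC window held 1 other protein-coding gene, POU5F1B, and 9 lncRNA genes. MAX and MYCN were at the low end, with 8 and 6 further peaks. MAX and MYC, whose promoter peaks were of like strength, had surroundings of different density. The peak density around MAX exceeded that around 15.2% of protein-coding genes only.

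**Figure D4:**
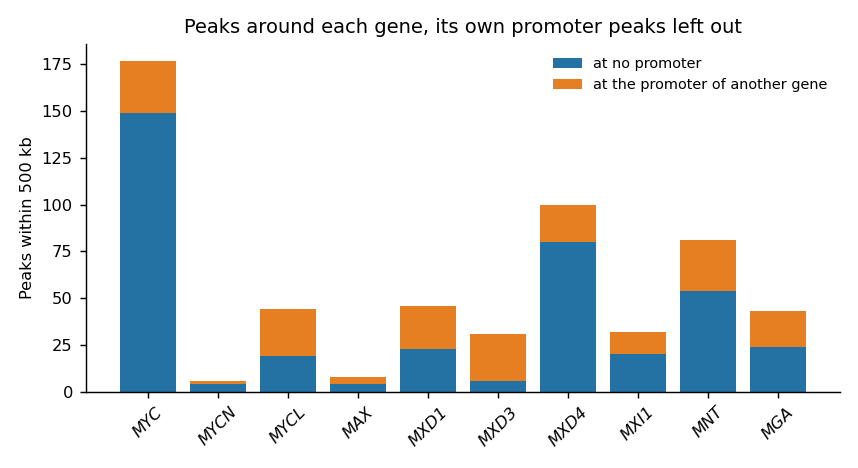
Number of peaks within 500 kb of the TSSs of each gene, its own promoter peaks left out, split into peaks at no promoter (blue) and at the promoter of another gene (orange). MYC has 177, MXD4 100 and MNT 81, while MYCN has 6 and MAX 8.

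Genes that work with the network were described by lists, also chosen with earlier results of these data known. All 14 genes of corepressors and coactivators had a promoter peak, from SIN3B (5.62), a scaffold for MXD proteins, to KAT5 (26.3), an acetyltransferase recruited by MYC, with a median of 9.94. The KAT5 peak is shared with RNASEH2C. All 12 genes that control MYC turnover had one (median 10.9), the strongest at the ubiquitin ligase gene HUWE1 (20.7). All 9 other genes of the MGA repressor complex had one (median 8.24), from RYBP (5.39) to CBX3 (30.9), whose peak it shares with HNRNPA2B1. The 3 genes of the parallel MLX branch, which couples nutrient levels to transcription, were weaker, with MLXIPL at 3.38, MLX at 4.72 and MLXIP at 7.86.

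All 25 textbook MYC target genes had a promoter peak, and in 20 of them it was above the median of all bound protein-coding genes. Their median was 11.2, and they ran from TERT (5.84), the telomerase gene, to the translation factor gene EIF4A1 (30.5, shared with SENP3). In the lists above, the best peak exceeded that overall median in 10 of 12 MYC turnover genes and 9 of 14 corepressors and coactivators. It did so in 2 of 9 genes of the MGA complex and 0 of 3 of the MLX branch. Of 9 other E-box-binding genes of the same protein class, 8 had a promoter peak and TFEC had none. They ran from TFE3 (4.49) to USF2 (15.1, shared with LSR), and 6 lay above the overall median. The shares of genes with a promoter peak are to be read beside the 59.4% of all protein-coding genes and the 79.1% of CpG-rich ones. For the counts above the overall median these are not the comparison, as a median splits the bound genes evenly by definition. That median was 8.67, beside 8.99 over bound CpG-rich protein-coding genes. No list was tested against another.

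**Figure D5:**
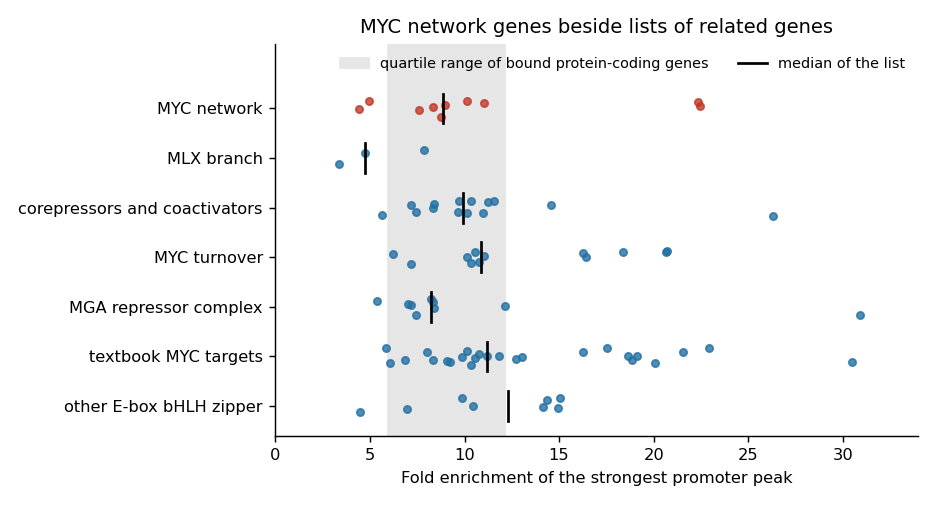
Fold enrichment of the strongest promoter peak of each gene (points, spread vertically for legibility only) in the MYC network and in 6 lists of related genes, with the median of each list as a black bar. The shaded band runs from 5.94 to 12.1, the first and the third quartile of bound protein-coding genes; the median is 8.85 for the network, 4.72 for the MLX branch and 11.2 for textbook MYC targets.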

How the data were processed

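MYBL2 ChIP and input chromatin of A673 cells were sequenced as single-end 100 bp reads. Per the study's methods and the submitters' processing notes, the authors aligned reads to hg19 with Bowtie2 (given as 2.1.10) and called narrow peaks with MACS2 (2.0.10) against the input. The deposited list gives for each peak a fold enrichment (a linear ratio), a −log10 p, a −log10 q and a score that equals 10 times the −log10 q without decimals. The weakest q was 0.0493. The list is called cleaned, and 10 of its running peak numbers are missing; the criterion is not given in the sources used here.

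A whole-number fragment count at the summit, recovered from the fold and −log10 p deposited by the authors, fitted all 66954 peaks. The median was 20 fragments. The recovery was also tested on simulated data.

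Promoters were 1000 bp either side of any TSS in GENCODE release 44 lifted to GRCh37, which shares hg19 coordinates (0 peaks beyond a chromosome end). A peak counted with 1 base of overlap. Words were sought in the GRCh37 genome. Python 3.11.15 and scipy 1.17.1 were used. With 1 library a group no test was made. The members and lists were chosen with earlier results of these data known. All 10 members are named, with the strongest, the weakest and any unbound gene of each list and the 5 strongest distal MYC peaks, except for items not reported here. Alternatives are given in the closing section.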

Additional observations from a re-analysis of the deposited data

How the results depend on the processing

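The count of 10 genes with a promoter peak was 10 with windows of 500 bp, with 5000 bp upstream, with the summit required in the window and with a −log10 q of at least 5. It was 9 with only the outermost TSS, where MXD1 had no peak, and 8 with a fold enrichment of at least 5. The alternatives choose from the same peak list, so a best promoter peak changes only where another peak is chosen. MXD1 with only the outermost TSS left no value to recompute. Of 39 recomputed best promoter peaks, 38 kept the reported value. The exception was MXI1 with only the outermost TSS (3.59), where the promoter inside the gene is not searched. The share of protein-coding genes with a promoter peak ran from 49.6 to 61.8%. The 177 distal peaks around MYC became 78 with a −log10 q of at least 5, 15 with a fold enrichment of at least 5 and 76 when peaks within 1000 bp counted as 1, while distances of 250 and 1000 kb gave 141 and 204. The density around MYC was higher than around 99.3% of protein-coding genes, and around 73.6% with a fold enrichment of at least 5. Of the MLX branch, 1 of 3 genes had a peak of fold enrichment 5 or more. With words sought within 100 bp of the summit, MYCN also held an E2F word. No paired analysis was possible because the labels give no replicates. Weak peaks rest on few fragments, which leaves wide intervals (2.77 to 6.67 for MYCL).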
